A study of Mus musculus with 93 samples.

Results

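Kupffer cells are the macrophages that live in the sinusoids of the liver. The 9 genes described here, Clec4f, Timd4, Vsig4, Marco, Cd5l, Cd163, Folr2, Adgre1 and Csf1r, were chosen by name as genes of resident Kupffer cells, out of 53465 genes in the count table. All 9 passed the filter on low counts, which left 19110 genes to test. Their RNA was measured in the livers of 93 male mice by RNA sequencing. The mice came from 7 inbred strains, of which C57BL/6J, DBA/2J, A/J and 129S1/SvImJ are domesticated and WSB/EiJ, CAST/EiJ and PWK/PhJ are wild-derived, with no engineered allele. All were housed at 30 °C, which is thermoneutral for mice, from 6 wk of age. From 7 wk of age they ate either a control diet (CD, with 10% of its energy from fat, 17% from protein and 73% from carbohydrate) or a Western-style diet (WD, with 40% from fat, 17% from protein and 43% from carbohydrate), and after 17 wk of diet the livers were collected at 24 wk of age, following a short fast, a blood draw and perfusion with saline. On CD there were 8 C57BL/6J, 6 DBA/2J, 5 A/J, 7 129S1/SvImJ, 6 WSB/EiJ, 7 CAST/EiJ and 6 PWK/PhJ mice. On WD there were 8, 7, 6, 6, 6, 8 and 7 mice of the same strains. Each liver was 1 mouse, so the errors below rest on differences between mice. After a level in CPM, ± gives the SD of a group. After a log2 difference, ± gives the standard error (SE) from 1 fit over all 93 mice.

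Kupffer cells are seeded from embryonic precursors and renew themselves, and their upkeep needs signalling through Csf1r, the receptor for the growth factors Csf1 and Il34. Contact with endothelial, stellate and hepatocyte cells, with Notch, TGF-beta and BMP signals, gives them their identity, which includes the surface lectin Clec4f and the phosphatidylserine receptor Timd4. When resident cells are lost in fatty liver disease, monocytes from blood can enter the niche, and cells that are recent arrivals carry little Timd4 while they express the macrophage genes Adgre1 (F4/80) and Csf1r. Of the other genes, Vsig4 binds complement fragments, Marco and Cd163 are scavenger receptors for particles and for haptoglobin-haemoglobin complexes, Folr2 binds folate, and Cd5l is a secreted protein also known as apoptosis inhibitor of macrophage.

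Promoter sequences are shown for Clec4f and Timd4, which mark residence, for Vsig4, and for Cd5l, the gene that the diet changed in the most strains. They are bases before the start of transcription in RefSeq on GRCm38.p6, read 5′ to 3′ on the strand of the gene, and are kept outside annotated exons. The Clec4f stretch is therefore the far 179 of the 250 bases and stops short of that start. Capitals mark motifs of factors known from macrophages, GGAAGT for PU.1, AGGTCA for nuclear receptors, TGCTGA for MAF factors and TGGGAA for RBPJ, on either strand. TGGGAA and GGAAGT share letters, so 1 stretch can match both, as in Clec4f. The stretches are chr6:83656188-83656366 (minus strand) for Clec4f, chr11:46810549-46810798 (plus) for Timd4, chrX:96293439-96293688 (minus) for Vsig4 and chr3:87357631-87357880 (plus) for Cd5l.
Clec4f: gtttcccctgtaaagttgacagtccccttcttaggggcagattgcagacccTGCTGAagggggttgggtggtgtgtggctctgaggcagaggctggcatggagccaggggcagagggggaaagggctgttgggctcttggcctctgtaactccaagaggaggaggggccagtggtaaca
Timd4: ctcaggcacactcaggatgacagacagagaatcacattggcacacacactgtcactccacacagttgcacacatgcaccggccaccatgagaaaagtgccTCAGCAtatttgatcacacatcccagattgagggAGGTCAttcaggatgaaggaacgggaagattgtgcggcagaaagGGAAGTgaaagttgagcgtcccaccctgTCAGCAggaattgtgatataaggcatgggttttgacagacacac
Vsig4: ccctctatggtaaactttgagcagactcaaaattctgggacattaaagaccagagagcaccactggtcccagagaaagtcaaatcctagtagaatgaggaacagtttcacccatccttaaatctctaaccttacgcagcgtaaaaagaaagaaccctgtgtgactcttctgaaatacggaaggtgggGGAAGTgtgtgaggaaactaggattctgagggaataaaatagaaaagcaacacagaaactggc
Cd5l: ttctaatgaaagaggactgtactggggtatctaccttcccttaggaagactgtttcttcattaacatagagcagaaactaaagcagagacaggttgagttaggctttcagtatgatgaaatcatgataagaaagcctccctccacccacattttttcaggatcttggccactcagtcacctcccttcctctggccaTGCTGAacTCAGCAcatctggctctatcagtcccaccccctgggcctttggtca

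The search covered up to 250 bases before each start, for 8 promoters of 7 genes, since 7 of the 8 genes looked up in RefSeq matched and Adgre1 did not. In the Timd4 window there were 4 matches, namely 2 of TGCTGA and 1 each of AGGTCA and GGAAGT. Clec4f held 4 matches, 1 of each motif, of which 3 lie in what GENCODE annotates as the first exon and are not printed. Cd5l had 2 matches, both of TGCTGA, Vsig4 had 1 of GGAAGT, and Marco had 1 of TGGGAA. The 2 promoters of Folr2 had 4 between them. Cd163 had none. Among 32851 promoters in the same table, GGAAGT stood in 19.7%, AGGTCA in 14.0%, TGCTGA in 16.1% and TGGGAA in 21.6%, so each of these short motifs is common. Csf1r was not searched. A match is a description of the letters and not a binding site.

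Sequencing gave 40020424 to 49894856 reads on genes per mouse, and RNA integrity numbers ran from 7 to 9.7. Reads of every strain were mapped by the study to the C57BL/6J genome, and the share of unmapped reads had a median of 2.20% in A/J and 2.39% in C57BL/6J, between 5.16% and 6.05% in DBA/2J, 129S1/SvImJ, PWK/PhJ and WSB/EiJ, and 12.5% in CAST/EiJ. Levels of a gene in different strains therefore carry a possible loss of reads at variant positions, which was not tested. WD and CD mice of 1 strain share their genome, but the unmapped share could still differ by diet. In PWK/PhJ it was 2.22% to 4.23% on CD and 5.48% to 8.73% on WD, with no overlap. In every other strain the diets overlapped, and DBA/2J had 5.42% to 7.07% on CD and 4.01% to 5.67% on WD. The part of this in the diet effects below was not tested. Mice were studied in cohorts. Every cohort of a strain held both diets, but WSB/EiJ shared no cohort with another strain, so its strain and cohort cannot be told apart. Hepatocyte markers dominated all livers, with summed levels of at least 62828 CPM (reads on a gene as a share of the TMM-scaled library, in the usual CPM unit), against at most 8.92 CPM for the 8 T and NK cell markers.

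A few mice stood apart in these genes. PWK/PhJ CD replicate 5 was the lowest of its group for 7 of the 9, with Clec4f at 17.9 CPM, Adgre1 at 0.993, Csf1r at 4.79 and Cd5l at 10.5, while its hepatocyte markers summed to 117456 CPM, inside the range of 112212 to 136904 of its group. C57BL/6J CD replicate 2 and C57BL/6J WD replicate 3 had Timd4 at 0.622 and 0.966 CPM and Cd163 at 0.974 and 1.43 CPM. They were the lowest of their groups for 4 and 5 of the 9. In the same 2 mice the cholangiocyte markers summed to 435 and 406 CPM, against medians of 54.4 on CD and 111 on WD, and the recruited macrophage genes to 1255 and 973 CPM, against medians of 268 and 351. Both lists hold Spp1. Their sinusoidal endothelial sums, 268 and 274.5 CPM, were the lowest of their groups, and so was the 254 CPM of PWK/PhJ CD replicate 5. The part of cell composition in these livers was not tested. Going the other way, C57BL/6J WD replicate 4 had Marco at 88.5 and Adgre1 at 129 CPM, and 129S1/SvImJ CD replicate 7 had Timd4 at 15.9 and Marco at 6.20 CPM. These 5 mice, with A/J WD replicate 3, CAST/EiJ CD replicate 4 and PWK/PhJ WD replicate 7, make 8 mice that were left out together in a second fit. They were picked from the values of these genes, so the spread without them is smaller by choice, and a fit without them is a description of how far they carry a result. Other mice that were kept stood at an end of their group for 8 of the 9. 129S1/SvImJ CD replicate 3, A/J WD replicate 6, DBA/2J WD replicate 4 and WSB/EiJ WD replicate 6 were lowest. A/J CD replicate 2, DBA/2J CD replicate 5, DBA/2J WD replicate 3 and PWK/PhJ CD replicate 3 were highest. In 129S1/SvImJ the second fit thus drops a high CD mouse and keeps a low one. In PWK/PhJ it drops a low CD mouse and a high WD mouse and keeps a high CD mouse. The second fit is not a neutral check in these strains.

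**Figure D1:**
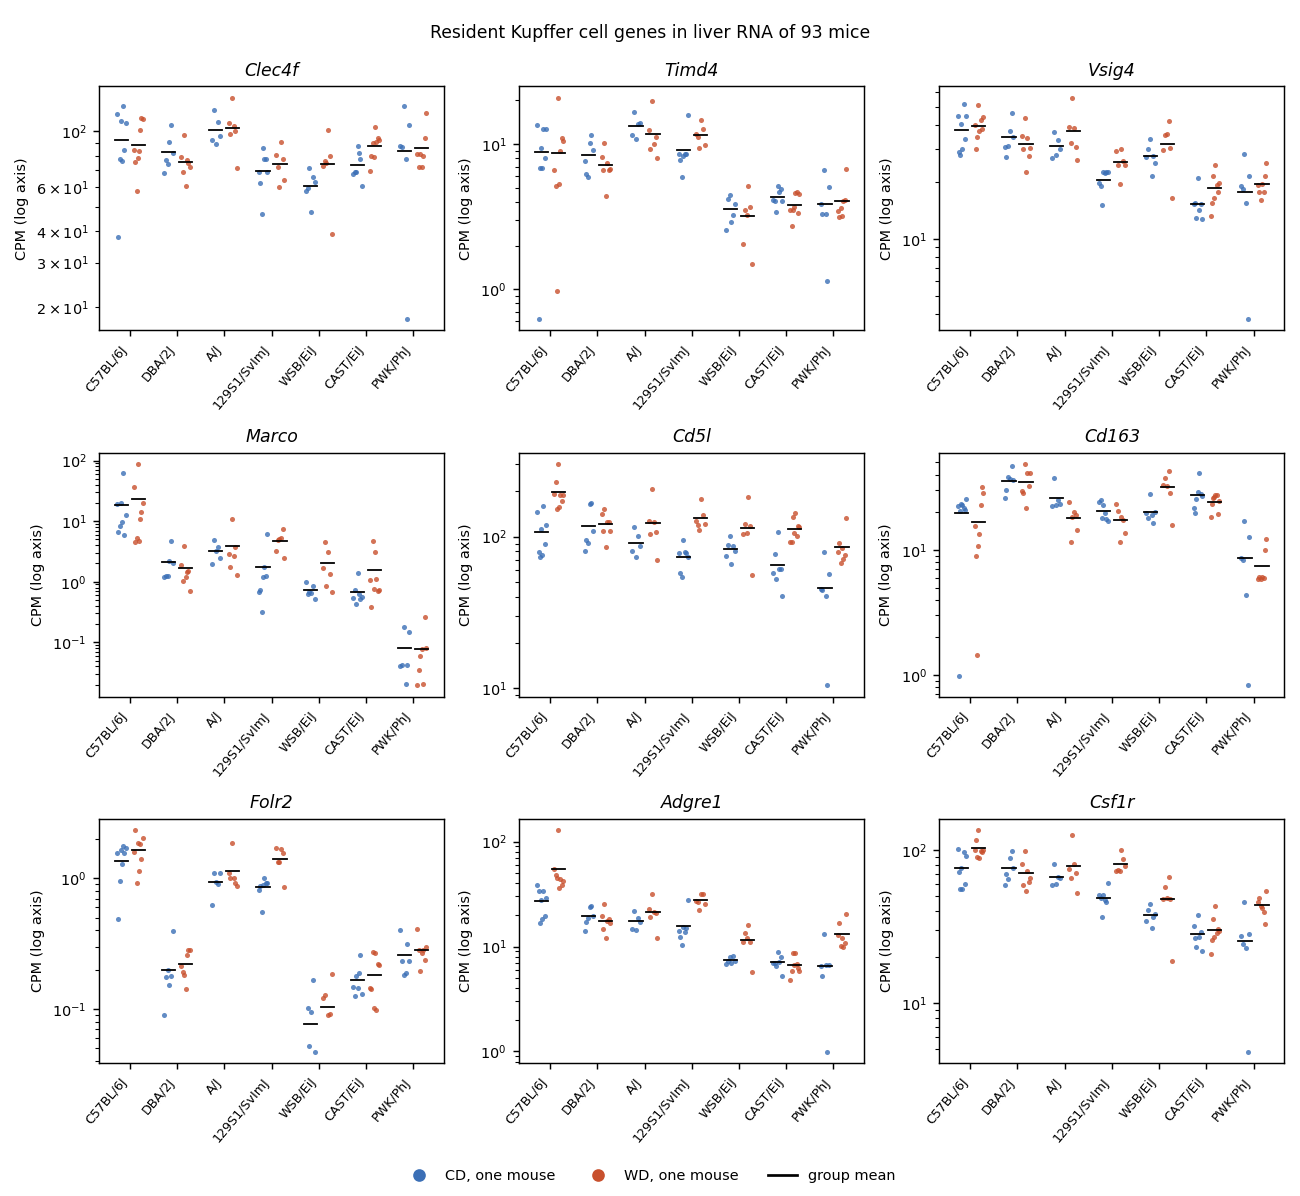
Level of each of the 9 genes in each of the 93 livers, in CPM on a log axis, by strain (blue points CD, red points WD, 1 point a mouse, black lines group means). Marco and Folr2 vary most between strains, and Adgre1, Csf1r and Cd5l stand higher on WD in several strains while the Clec4f ranges overlap in every strain, and 1 CD and 1 WD mouse of WSB/EiJ with 0 Folr2 reads are not drawn but count in the means.

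The first question was whether WD changed these genes within each strain. Of 63 combinations of gene and strain, 11 rose on WD, none fell, and 52 did not pass limma's test on voom weights at a Benjamini-Hochberg adjusted p under 0.05. The rises were in Cd5l, Adgre1 and Csf1r, with Marco and Folr2 in 1 strain, while the residence markers Clec4f and Timd4, the complement receptor Vsig4 and the scavenger receptor Cd163 did not pass the test in any strain. In bulk liver, fewer cells of a type and less RNA per cell cannot be told apart.

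In 129S1/SvImJ, 5 of the 9 genes rose, against 14.5% of all genes tested. PWK/PhJ had 3 of 9 against 15.1%, C57BL/6J had 2 of 9 against 14.3%, and CAST/EiJ had 1 of 9 against 9.77%. No gene of the 9 passed in DBA/2J, where 10.2% of all genes rose, in A/J, where 4.39% rose, or in WSB/EiJ, where 4.97% rose. None was lower on WD in any strain, while among all genes 11.9% were lower in C57BL/6J, 7.77% in DBA/2J, 4.64% in A/J, 13.6% in 129S1/SvImJ, 3.97% in WSB/EiJ, 9.73% in CAST/EiJ and 14.5% in PWK/PhJ. At 9 genes, a count of 1 or 2 is close to what these shares give, and the 129S1/SvImJ count is the one farthest above its background. The median log2 fold change of the 9 was 0.70 in 129S1/SvImJ, between 0.08 and 0.34 in C57BL/6J, A/J, WSB/EiJ, CAST/EiJ and PWK/PhJ, and -0.12 in DBA/2J, where the median of all genes tested lay between -0.01 and 0.02 in each strain. edgeR's quasi-likelihood test and DESeq2 gave the same number in each strain, and the 129S1/SvImJ count fell to 3 without CD replicate 3. Without the 8 mice that stood apart, the counts of genes that rose were 3 in C57BL/6J (15.3% of 18906 genes tested in that fit), 6 in 129S1/SvImJ (14.6%), 1 in CAST/EiJ (12.9%) and 3 in PWK/PhJ (14.0%), and 0 in DBA/2J (10.8%), A/J (4.88%) and WSB/EiJ (6.09%).

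**Figure D2:**
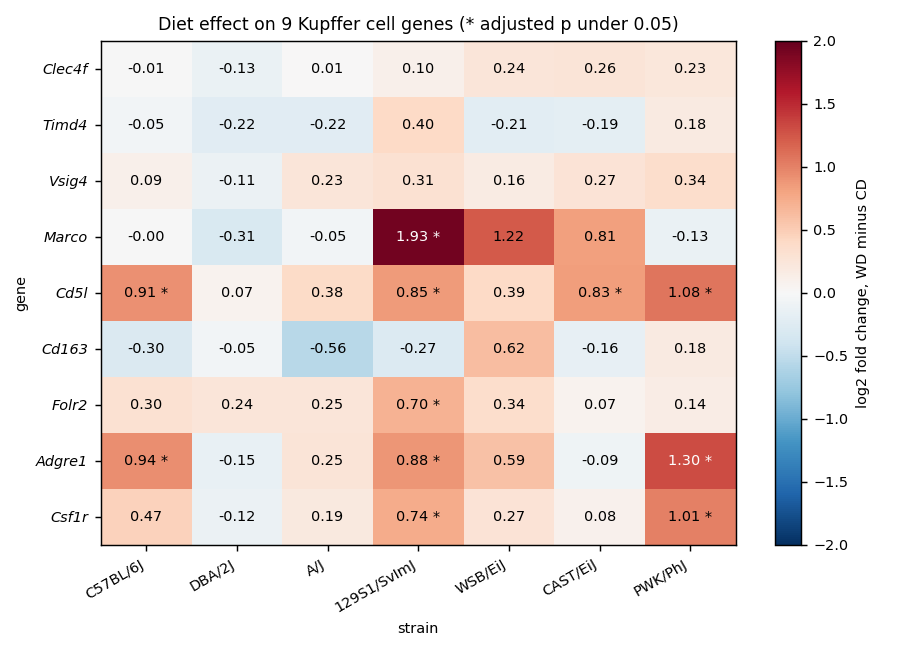
Log2 fold change of WD against CD for each of the 9 genes (rows) in each of the 7 strains (columns), from 1 limma-voom fit over 93 mice, with an asterisk where the adjusted p is under 0.05. The 11 asterisks are all increases and stand in the rows of Cd5l (4), Adgre1 (3), Csf1r (2), Marco (1) and Folr2 (1).

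Clec4f (chromosome 6, 83644542-83656187, minus strand, GRCm38) is a C-type lectin that in mice is found almost only on Kupffer cells. In C57BL/6J its level was 37.9 to 126 CPM on CD, with a median of 95.7, and 57.6 to 113 CPM on WD, with a median of 83.8. The 2 ranges lie within each other, and the log2 fold change was -0.01 (95% interval -0.39 to 0.37). In PWK/PhJ the range was 17.9 to 126 CPM on CD, with a median of 87.2, and 71.9 to 118 CPM on WD, with a median of 81.2. Here 6 mice on CD and 7 on WD overlapped, with a log2 fold change of 0.23 (95% interval -0.19 to 0.65). The direction turned without CD replicate 5, the mouse at 17.9 CPM (-0.17, adjusted p = 0.511, limma), and Timd4 at -0.13, Vsig4 at -0.06 and Cd163 at -0.39 were then also below 0 in PWK/PhJ, none of them called. CAST/EiJ had 5 of 8 WD mice above every CD mouse (a median of 69.0 CPM on CD and 89.9 on WD), but the log2 fold change of 0.26 did not pass (adjusted p = 0.406, limma). Across the 7 strains the lowest end of a 95% interval was -0.55, in DBA/2J, and the highest end was 0.68, in WSB/EiJ. A change beyond these bounds is outside the interval in every strain, and smaller ones cannot be told from no change.

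Timd4 (chromosome 11, 46810800-46844332, plus strand) is a receptor for phosphatidylserine on dying cells and is carried by long-lived tissue macrophages. Its log2 fold change ran from -0.22 in A/J and DBA/2J to 0.40 in 129S1/SvImJ, and no strain passed (adjusted p from 0.407 to 0.939, limma). C57BL/6J mice ranged from 0.622 to 13.4 CPM on CD and from 0.966 to 20.9 CPM on WD, with medians of 8.74 and 7.82. A single low mouse on each diet and a single high one on WD set these ranges. In 129S1/SvImJ, CD mice ranged from 5.89 to 15.9 CPM with a median of 8.52, and WD mice from 9.43 to 14.7 CPM with a median of 11.5. All 6 WD mice were above 6 of the 7 CD mice, the exception being CD replicate 7. In the fit without the 8 mice Timd4 passed in this strain (log2 fold change 0.54, adjusted p = 0.0120, limma). That fit drops CD replicate 7, whose removal by itself leaves the 2 ranges apart, so the pass is no separate test. Of 13 fits that left out 1 mouse of this strain, 0 called Timd4.

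Vsig4 (chromosome X, 96247203-96293438, minus strand) is the receptor by which Kupffer cells take bacteria coated with complement out of blood. It had the same sign in 6 of 7 strains, with log2 fold changes of 0.09 to 0.34 above 0 and -0.11 in DBA/2J, and passed in none (adjusted p from 0.222 to 0.766, limma). In 129S1/SvImJ 5 of 6 WD mice were above every CD mouse, with medians of 22.4 CPM on CD and 25.2 CPM on WD, and a separate fit of that strain alone gave a log2 fold change of 0.33 (adjusted p = 0.0220, limma).

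Adgre1 (chromosome 17, 57358691-57483527, plus strand) encodes F4/80, the adhesion receptor used to stain mouse macrophages of many tissues. In C57BL/6J it was 16.8 to 38.4 CPM on CD, with a median of 28.4, and 35.9 to 129 CPM on WD, with a median of 44.2. Of 8 WD mice 7 were above every CD mouse, and the log2 fold change was 0.94 ± 0.19 (SE, adjusted p = 8.41e-05, limma). PWK/PhJ ranged from 0.993 to 13.2 CPM on CD, with a median of 6.53, and from 9.81 to 20.6 CPM on WD, with a median of 11.9. Of 7 WD mice 2 were above every CD mouse, and the log2 fold change was 1.30 ± 0.30 (adjusted p = 0.000339). 129S1/SvImJ ranged from 10.3 to 28.0 CPM on CD, with a median of 14.2, and from 22.4 to 31.7 CPM on WD, with a median of 27.1. All WD mice stood above 6 of 7 CD mice, and the log2 fold change was 0.88 ± 0.23 (adjusted p = 0.00207). Without PWK/PhJ CD replicate 5 the change in PWK/PhJ was 0.83 (adjusted p = 0.0117), so the call held at a smaller size. CAST/EiJ had medians of 6.95 CPM on CD and 6.48 CPM on WD (log2 fold change -0.09, 95% interval -0.69 to 0.51).

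Csf1r (chromosome 18, 61100598-61132149, plus strand), the receptor tyrosine kinase on which macrophages depend for survival, followed Adgre1. In 129S1/SvImJ it was 36.5 to 60.5 CPM on CD, with a median of 48.5, and 72.5 to 99.6 CPM on WD, with a median of 76.1. No WD mouse overlapped a CD mouse, and the log2 fold change was 0.74 ± 0.22 (adjusted p = 0.00616, limma). In PWK/PhJ it was 4.79 to 45.6 CPM on CD, with a median of 25.9, and 32.9 to 53.8 CPM on WD, with a median of 42.7. The groups overlapped, with a log2 fold change of 1.01 ± 0.22 (adjusted p = 0.000236), and of 0.58 without CD replicate 5 (adjusted p = 0.0121). In C57BL/6J the change was 0.47 ± 0.20 and did not pass (adjusted p = 0.0687, limma). It passed without CD replicate 1 or CD replicate 6 (adjusted p = 0.0440 and 0.0481), with sample quality weights (0.0352) and in a fit of that strain alone (0.0311). Exons of Hmgxb3, on the opposite strand, share 873 bases with Csf1r. Hmgxb3 stood at group means of 10.9 to 16.3 CPM, and whether the study's counting separated strands is not given in the sources used here.

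Cd5l (chromosome 3, 87357881-87371073, plus strand), the secreted apoptosis inhibitor, was per length the most abundant of the 9 in C57BL/6J on CD, and it rose in 4 strains. In C57BL/6J it was 73.7 to 159 CPM on CD, with a median of 101, and 151 to 301 CPM on WD, with a median of 187. Of 8 WD mice 6 stood above every CD mouse (log2 fold change 0.91 ± 0.22, SE, adjusted p = 0.000681, limma). In 129S1/SvImJ, where it was 54.2 to 95.3 CPM on CD and 111 to 177 CPM on WD, the diets did not overlap (0.85 ± 0.24, adjusted p = 0.00372). CAST/EiJ rose from a median of 61.2 CPM on CD (40.9 to 107) to 111 CPM on WD (91.6 to 143), with 4 of 8 WD mice above every CD mouse (0.83 ± 0.22, adjusted p = 0.00304). It was the only one of the 9 genes that passed in CAST/EiJ. PWK/PhJ rose from a median of 44.9 CPM (10.5 to 79.1) to 78.6 CPM (67.1 to 132), a log2 fold change of 1.08 ± 0.23 (adjusted p = 0.000173, limma), and of 0.69 without CD replicate 5 (adjusted p = 0.00789). In A/J the 5 CD livers had 79.8, 116, 73.7, 100.5 and 86.6 CPM and the WD livers 70.6 to 206 CPM with a median of 116, which did not pass (0.38, adjusted p = 0.395, limma). DBA/2J had 0.07 (95% interval -0.40 to 0.54).

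For the 11 rises, diet was also compared within each cohort. All 23 within-cohort differences of mean log2 CPM pointed up, from 0.47 to 2.89. These pairs were picked as rises in the same mice, so the shared direction is no separate test. Cohorts were small, and CAST/EiJ cohort 1 held 1 CD mouse. Adgre1 in PWK/PhJ was 0.76 higher on WD in cohort 1 and 1.83 higher in cohort 2, which holds the low CD mouse. Marco in 129S1/SvImJ was 2.89 higher in cohort 3 and 1.17 higher in cohort 5.

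Marco (chromosome 1, 120474538-120505024, minus strand), a scavenger receptor for bacteria and particles, varied widely between mice of a group. In 129S1/SvImJ it was 0.319 to 6.20 CPM on CD, with a median of 1.19, and 2.43 to 7.52 CPM on WD, with a median of 5.01. The WD mice lay above 6 of 7 CD mice, and the log2 fold change was 1.93 ± 0.70 (SE, adjusted p = 0.0296, limma). This call was lost in 4 of 13 fits that left out 1 mouse, namely CD replicates 1, 2 and 3 and WD replicate 5 (adjusted p up to 0.0794), and with cohort as a covariate (adjusted p = 0.0540). C57BL/6J had 5.97 to 62.5 CPM on CD and 4.54 to 88.5 CPM on WD, with medians of 11.1 and 12.4 and ranges that overlap (95% interval of the log2 fold change -0.65 to 0.65). WSB/EiJ had 4 of 6 WD mice above every CD mouse, with medians of 0.661 CPM on CD and 1.51 CPM on WD, and did not pass (1.22, adjusted p = 0.518, limma). PWK/PhJ livers held 1 to 9 Marco reads on CD and 1 to 12 on WD, too few to compare the diets.

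Cd163 (chromosome 6, 124304656-124330527, plus strand) takes up haptoglobin-haemoglobin complexes. Its direction varied, from -0.56 in A/J, where 5 of 6 WD mice were below every CD mouse, to 0.62 in WSB/EiJ, where 5 of 6 WD mice were above every CD mouse. Neither passed in the common fit (adjusted p = 0.475 and 0.418, limma), and a separate fit of A/J alone gave -0.55 (adjusted p = 0.0497). In WSB/EiJ the CD mice had 16.3 to 27.9 CPM with a median of 19.2, and the WD mice 15.7 to 43.1 CPM with a median of 32.7. C57BL/6J CD mice had 20.5 to 25.5 CPM apart from replicate 2 at 0.974, and WD mice 1.43 to 31.7 CPM with a median of 14.5. Leaving out only that CD mouse gave a log2 fold change of -0.88 (adjusted p = 0.0174, limma), whereas the fit without the 8 mice, which also drops the low WD mouse, gave -0.29 (adjusted p = 0.309).

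Folr2 (chromosome 7, 101839988-101857194, minus strand), a folate receptor of resident macrophages in many tissues, was the gene with the fewest reads outside PWK/PhJ. In 129S1/SvImJ it was 0.553 to 1.01 CPM on CD, with a median of 0.889, and 0.856 to 1.71 CPM on WD, with a median of 1.45. Of 6 WD mice 5 were above every CD mouse, with a log2 fold change of 0.70 ± 0.23 (adjusted p = 0.0161, limma), and the call was lost without CD replicate 3 (adjusted p = 0.0528). The other strains had log2 fold changes of 0.07 to 0.34, none of which passed. An antisense gene, Gm10602, shares 975 of its exon bases with Folr2, at group means of 0.389 to 1.21 CPM, so reads from the 2 strands may not be separated. In 129S1/SvImJ the Gm10602 means were 0.872 CPM on CD and 1.19 CPM on WD, beside 0.857 and 1.41 CPM for Folr2. The part of Gm10602 reads in the Folr2 call was not tested. In WSB/EiJ 1 CD and 1 WD mouse had 0 Folr2 reads, where 3 reads, the most a count of 0 allows, would be 0.0779 and 0.0748 CPM (counting error only).

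A call in 1 strain and not in another does not show a difference, so the diet effects were compared directly. An F test of equal diet effects over the 7 strains was passed by Adgre1 (adjusted p = 0.00113, limma) and Csf1r (adjusted p = 0.0235), 2 of 9 genes, against 37.5% of all genes tested. Cd5l gave 0.0819, Marco 0.169, and the other 5 genes between 0.674 and 0.897. Cd5l passed with sample quality weights (adjusted p = 0.0256) and when any 1 of 3 mice was left out, namely PWK/PhJ CD replicate 3 (0.0284), A/J WD replicate 3 (0.0476) or WSB/EiJ WD replicate 4 (0.0489), and Marco passed without C57BL/6J WD replicate 4 (0.0319). Against the mean of the other 6 strains, DBA/2J had an Adgre1 effect lower by 0.79 ± 0.26 on the log2 scale (adjusted p = 0.0404), and PWK/PhJ had effects higher by 0.90 ± 0.31 for Adgre1 (adjusted p = 0.0375) and by 0.74 ± 0.24 for Csf1r (adjusted p = 0.0249). These are 1 and 2 of 9 genes, against 7.77% of all genes in DBA/2J and 16.3% in PWK/PhJ, both counted in either direction. No gene of the 9 passed for C57BL/6J (4.69% of all genes), A/J (0.466%), 129S1/SvImJ (6.28%), WSB/EiJ (0.947%) or CAST/EiJ (14.5%).

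In PWK/PhJ on CD, replicate 3 was the highest mouse for 8 of the 9 genes and replicate 5 the lowest for 7. With 1 PWK/PhJ mouse left out, the change on WD ran from 0.83 to 1.57 for Adgre1 and from 0.58 to 1.23 for Csf1r. Both genes stayed called in all 13 of these fits. The difference from the other strains did not pass without CD replicate 5. Without it, the PWK/PhJ effect stood above the mean of the others by 0.43 for Adgre1 (adjusted p = 0.340) and 0.31 for Csf1r (adjusted p = 0.330), while the F test over the strains was still passed by Adgre1 (adjusted p = 0.00225) and Csf1r (adjusted p = 0.0327). In each of the 93 fits that left out 1 mouse the F test was passed by both genes, with adjusted p at most 0.00241 for Adgre1 and 0.0390 for Csf1r, but edgeR's quasi-likelihood test gave 0.0655 for Csf1r. Without the 8 mice that stood apart, 6 of the 9 genes passed the F test, against 42.3% of all genes tested in that fit, the 4 more being Timd4 (adjusted p = 0.0165), Marco (0.00572), Cd5l (0.0124) and Cd163 (0.0221). Against the mean of the other 6 strains, 129S1/SvImJ then had higher effects for Timd4 by 0.81, Adgre1 by 0.68 and Csf1r by 0.57 (3 of 9, against 8.53% of all genes in either direction), and WSB/EiJ for Cd163 by 0.93 (1 of 9, against 1.79%). DBA/2J had lower effects in that fit for Adgre1, at -0.70, and Cd5l, at -0.57 (2 of 9, against 9.93%), and no gene of the 9 passed for PWK/PhJ (14.2% of all genes), C57BL/6J (7.56%), A/J (0.529%) or CAST/EiJ (19.3%).

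Ratios between 2 genes in the same liver depend little on library scaling, and they were compared between diets within each strain with 2-sided exact permutation tests, adjusted over 21 tests. The ratio of Clec4f, a gene of resident cells, to Adgre1, a gene of all macrophages, was lower on WD in 5 of 7 strains and higher in CAST/EiJ. In PWK/PhJ the log2 ratio was 3.24 to 4.11 on CD, with a median of 3.87, and 2.11 to 3.11 on WD, with a median of 2.64. The diets did not overlap, and the mean fell by 1.07 (exact permutation, adjusted p = 0.0122). Without CD replicate 5 it fell by 1.00 (exact permutation, adjusted p = 0.0177). Elsewhere it fell by 0.95 in C57BL/6J (adjusted p = 0.0404, exact permutation), by 0.78 in 129S1/SvImJ (adjusted p = 0.0286), by 0.34 in WSB/EiJ (adjusted p = 0.0286) and by 0.24 in A/J (adjusted p = 0.0404).

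CAST/EiJ went the other way, from log2 ratios of 3.28 to 3.52 on CD to 3.37 to 3.97 on WD, a mean rise of 0.35 (exact permutation, adjusted p = 0.0131). DBA/2J had a difference of 0.02 (adjusted p = 0.882), with 1.94 to 2.28 on CD and 1.94 to 2.34 on WD. The calls in 129S1/SvImJ, WSB/EiJ, CAST/EiJ and PWK/PhJ held whichever single mouse was left out, but the A/J call held in 1 of 11 such tests and the C57BL/6J call in 6 of 16. On CD the ratio already differed widely between strains, from a mean of 1.74 in C57BL/6J to 3.78 in PWK/PhJ, a comparison to which the mapping of all strains to 1 genome applies.

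Timd4 relative to Clec4f was lower on WD in CAST/EiJ, from -4.32 to -3.88 on CD to -4.85 to -4.25 on WD, where the mean fell by 0.44 (exact permutation, adjusted p = 0.0122), and in WSB/EiJ, where it fell by 0.47 (adjusted p = 0.0404). The WSB/EiJ call held in 3 of 12 tests with 1 mouse left out. C57BL/6J had -5.84 in its lowest mouse on both diets, the 2 mice with little Timd4, and a mean difference of -0.04 (adjusted p = 0.968). In 129S1/SvImJ the ratio was -2.77 to -2.60 on WD and -3.36 to -2.11 on CD (adjusted p = 0.165), and without CD replicate 7 the WD mean was higher by 0.45 (adjusted p = 0.00758, exact permutation). CD replicate 7 was the only CD mouse that overlapped the WD mice, so its removal by itself separates the diets. The third ratio, Marco to Clec4f, rose in 129S1/SvImJ by 1.81 (adjusted p = 0.0286) and in WSB/EiJ by 0.93 (adjusted p = 0.0409), the latter lost in 10 of 12 tests with 1 mouse left out.

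**Figure D3:**
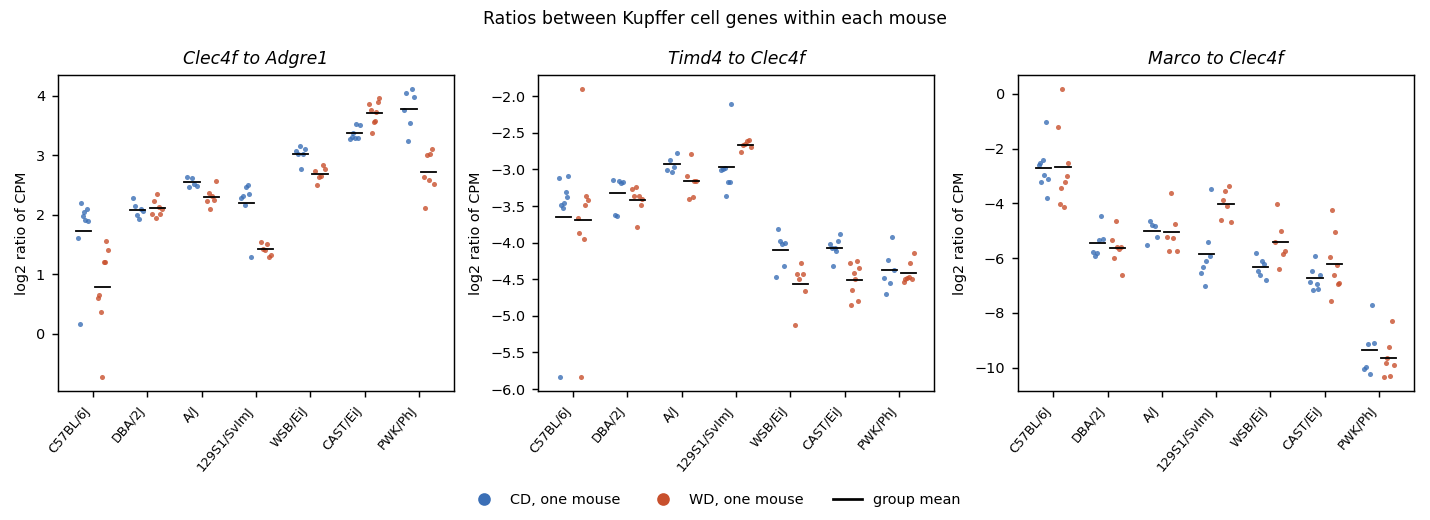
Log2 ratio of CPM within each liver for Clec4f to Adgre1, Timd4 to Clec4f and Marco to Clec4f, by strain (blue points CD, red points WD, 1 point a mouse, black lines group means). For Clec4f to Adgre1 the WD points lie below the CD points in PWK/PhJ with no overlap, and mostly above them in CAST/EiJ, while the DBA/2J points overlap, at 1.94 to 2.28 on CD and 1.94 to 2.34 on WD.

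The second question was how the strains differ on CD. All 9 genes passed an F test of equal CD levels (adjusted p from 6.77e-18 for Folr2 to 0.0370 for Clec4f, limma), but so did 93.7% of all genes tested, so the 9 do not stand out by it. Clec4f differed least, from 60.8 ± 8.1 CPM (SD, n = 6) in WSB/EiJ to 101 ± 13.3 CPM (n = 5) in A/J, a ratio of 1.67, and no neighbouring strains in the order A/J, C57BL/6J, PWK/PhJ, DBA/2J, CAST/EiJ, 129S1/SvImJ, WSB/EiJ differed by more than the larger of their SDs. With cohort as an additive term and no WSB/EiJ mice, Clec4f no longer passed (adjusted p = 0.154), nor did it when every gene with any count was kept (adjusted p = 0.0678).

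Adgre1 and Csf1r were ordered alike. Adgre1 was 27.2 ± 8.1 CPM (SD, n = 8) in C57BL/6J, then 19.6, 17.4 and 15.6 CPM in DBA/2J, A/J and 129S1/SvImJ, and 7.38, 7.08 and 6.52 CPM in WSB/EiJ, CAST/EiJ and PWK/PhJ. Only the step between 129S1/SvImJ and WSB/EiJ exceeded the larger SD of the neighbours, so the 4 domesticated strains stood apart from the 3 wild-derived ones. Csf1r ran from 76.0 ± 18.6 CPM in C57BL/6J to 25.5 ± 13 CPM (n = 6) in PWK/PhJ in the same order, with steps above the larger SD below A/J, below 129S1/SvImJ and below WSB/EiJ. Timd4 was highest in A/J, at 13.3 ± 2.3 CPM (n = 5), lay at 8.42 to 9.06 CPM in 129S1/SvImJ, C57BL/6J and DBA/2J, and at 3.54 to 4.32 CPM in the wild-derived strains. The steps after A/J and after DBA/2J were the ones above the larger SD.

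Cd163 was highest in DBA/2J at 35.5 ± 7.0 CPM (n = 6) and lowest in PWK/PhJ at 8.65 ± 5.8 CPM, and the strains between them, from CAST/EiJ at 27.4 to C57BL/6J at 19.8 CPM, did not differ beyond the SD of their neighbours. Vsig4 ran from 37.6 ± 8.9 CPM in C57BL/6J to 15.3 ± 2.8 CPM (n = 7) in CAST/EiJ, and Cd5l from 118 ± 37.8 CPM in DBA/2J to 46.1 ± 22.4 CPM in PWK/PhJ, with no step of Cd5l above the larger SD. Folr2 had 2 tiers, 1.37, 0.934 and 0.857 CPM in C57BL/6J, A/J and 129S1/SvImJ against 0.259, 0.199, 0.167 and 0.0769 CPM in PWK/PhJ, DBA/2J, CAST/EiJ and WSB/EiJ. DBA/2J, a domesticated strain, was in the lower tier, and the step from CAST/EiJ to WSB/EiJ also exceeded the larger SD. Marco was 18.2 ± 18.7 CPM in C57BL/6J, 0.688 to 3.26 CPM in the strains between, and 0.0791 ± 0.0674 CPM in PWK/PhJ, where the mouse with the most had 9 reads.

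Against the mean of the other 6 strains on CD, C57BL/6J was higher for 6 of the 9 genes (57.9% of all genes differed in either direction), with 2.19 ± 0.18 on the log2 scale for Folr2 and 4.10 ± 0.41 for Marco. A/J was higher for 6 (36.7% of all genes) and PWK/PhJ lower for 7 (58.6%). DBA/2J was higher for 5 and lower for Folr2 (42.3%), 129S1/SvImJ was higher for Folr2 alone (44.2%), and WSB/EiJ and CAST/EiJ were lower for 4 each (49.2% and 63.9%). These shares count both directions, while most counts of the 9 are in 1 direction, so the 2 are unlike measures. For the fit without the 8 mice that stood apart, shares are given in the direction of each count. C57BL/6J was then higher for 8 of the 9 (27.7% of all genes were higher), A/J for 7 (22.2%) and DBA/2J for 6 (24.2%). Folr2 was still lower in DBA/2J (20.7%). PWK/PhJ stayed lower for 7 (28.2%) and was higher for Clec4f, by 0.27 (29.3%). CAST/EiJ was lower for 7 (32.9%) and WSB/EiJ for 5 (24.7%). 129S1/SvImJ was higher for Folr2 (24.9%) and lower for Clec4f and Vsig4 (19%). The 8 mice were picked from the values of these genes, so these counts are a description. Compared between genes per kilobase of merged exons, C57BL/6J livers on CD had 52.4 CPM per kb of Cd5l, 37.2 of Clec4f, 25.4 of Vsig4, 13.2 of Csf1r, 9.43 of Marco, 8.39 of Adgre1, 4.06 of Timd4, 3.62 of Cd163 and 0.886 of Folr2.

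Genes around the 9 were counted in lists. Of 14 other Kupffer cell genes, such as the transcription factors Id3, Spic, Zeb2 and Nr1h3 and the iron exporter Slc40a1, 6 rose and 2 fell in C57BL/6J, 6 rose in 129S1/SvImJ, and 4 rose and 3 fell in PWK/PhJ. DBA/2J had 1 in each direction, A/J had 1 that rose, and WSB/EiJ and CAST/EiJ had none. The 4 and 3 of 14 in PWK/PhJ are not far above the 15.1% and 14.5% of all genes there. In 129S1/SvImJ the largest were Vcam1, an adhesion molecule also made by endothelium, at 1.29 ± 0.20 (SE), the metal transporter Slc11a1 at 0.97 ± 0.18 and the haem oxygenase Hmox1 at 0.90 ± 0.20 (log2 fold changes). C57BL/6J had Id1, an inhibitor of helix-loop-helix factors, at -0.99 ± 0.24, Vcam1 at 0.91 ± 0.16 and Slc11a1 at 0.77 ± 0.14. PWK/PhJ had Il18bp at 0.89 ± 0.19, Slc11a1 at 0.83 ± 0.21 and Hpgd at -0.81 ± 0.17. Several of these genes are expressed by cells other than macrophages.

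Of 11 genes for Csf1r ligands and niche signals, 6 rose in C57BL/6J, 5 rose and 2 fell in 129S1/SvImJ, 4 rose in PWK/PhJ, 1 rose in A/J and in CAST/EiJ, 2 fell in DBA/2J, and none passed in WSB/EiJ. The 2 that fell in 129S1/SvImJ are near the 13.6% of all genes, and the 1 in CAST/EiJ is near 9.77%. The ligand Csf1 had 0.86 ± 0.12 in 129S1/SvImJ and 0.44 ± 0.12 in CAST/EiJ. Il34, the other ligand, had 0.60 ± 0.13 in C57BL/6J and 0.63 ± 0.13 in PWK/PhJ, and Tgfbr2, a TGF-beta receptor, had 0.99 ± 0.14 in A/J. In DBA/2J the BMP ligand Gdf2 had -0.36 ± 0.11 and the co-receptor Eng -0.28 ± 0.09.

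Other cells of the lineage were followed by 2 lists. Of 13 genes that all macrophages share, 12 rose in C57BL/6J, 11 in 129S1/SvImJ and 12 in PWK/PhJ, 1 in WSB/EiJ and CAST/EiJ, and none in DBA/2J or A/J, with median log2 fold changes of 0.72, 1.03 and 1.04 in the first 3 strains. Of 12 genes of recruited and lipid-associated macrophages, 10 rose in each of PWK/PhJ, 129S1/SvImJ and C57BL/6J, 6 in WSB/EiJ, 4 in A/J, 1 in CAST/EiJ and none in DBA/2J. The median log2 fold change of this list was 2.65 in 129S1/SvImJ, 2.59 in PWK/PhJ, 1.57 in WSB/EiJ and 1.29 in C57BL/6J. In PWK/PhJ, Gpnmb, a glycoprotein of lipid-laden macrophages, had 6.46 ± 1.12, the lipid receptor Trem2 had 6.01 ± 1.05 and the elastase Mmp12 had 4.55 ± 0.72. WSB/EiJ, with none of the 9 genes called, had Gpnmb at 4.36 ± 1.19, Mmp12 at 4.21 ± 0.87 and the integrin Itgax at 3.75 ± 0.75. The genes of this list that fell, named after their values were seen, were the fatty acid binding protein Fabp5 in C57BL/6J, DBA/2J, A/J, 129S1/SvImJ and PWK/PhJ and the tetraspanin Cd9 in C57BL/6J.

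**Figure D4:**
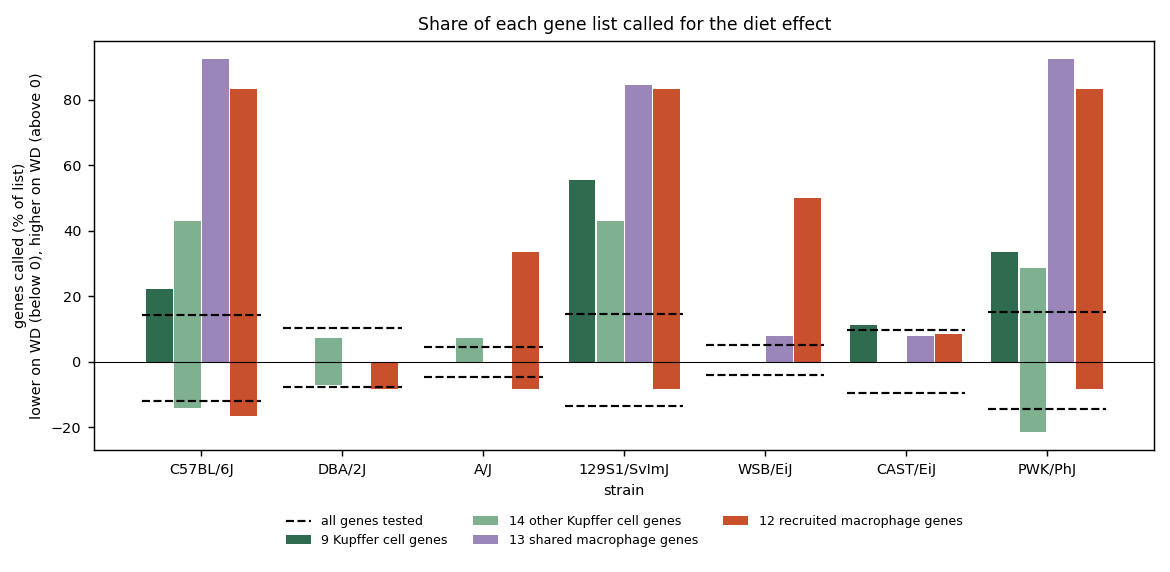
Share of each gene list, in percent, that passed the test for higher (above 0) or lower (below 0) expression on WD in each strain, with dashed lines at the share of all genes tested. In 129S1/SvImJ 5 of the 9 genes, 11 of 13 shared and 10 of 12 recruited macrophage genes rose, and in WSB/EiJ none of the 9 and 6 of the 12 did.

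Other cell types moved too. Hepatocyte markers summed lower on WD, from medians of 125650 to 78538 CPM in PWK/PhJ and 126640 to 82495 CPM in C57BL/6J, with 4 of 8 markers lower in each, and CPM is a share of all reads. T and NK cell markers rose for 7 of 8 in 129S1/SvImJ, with sums of 0.872 to 1.67 CPM on CD and 2.66 to 4.46 CPM on WD, and neutrophil markers for 4 of 6 in 129S1/SvImJ, with sums of 2.99 to 4.53 CPM on CD and 8.59 to 15.3 CPM on WD, and for 4 of 6 in PWK/PhJ, with 3.23 to 5.93 CPM on CD and 6.76 to 11.1 CPM on WD. Cholangiocyte markers rose for 4 of 6 in PWK/PhJ, where the sum went from 64.7 to 140.3 CPM on CD to 159 to 525 CPM on WD. Of 8 sinusoidal endothelial markers, 5 fell in DBA/2J, where the median sum was 327 CPM on CD and 282 CPM on WD. In C57BL/6J 4 fell and 2 rose, in PWK/PhJ 2 fell and 1 rose, in WSB/EiJ 2 fell, and in 129S1/SvImJ 2 rose and 2 fell at median sums of 380 and 383 CPM, while none passed in A/J or CAST/EiJ. No marker list was used to adjust the 9 genes, and the part of cell composition in their changes was not tested.

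Over the 93 mice, log2 CPM of Adgre1 and Csf1r had a Pearson r of 0.95 and Vsig4 and Csf1r of 0.89, while Cd163 and Folr2 had -0.13. These points share strain, diet and cohort, and r is a description. Most like Adgre1 were Laptm5 (r = 0.94), Slc15a3 (0.93) and Rac2 (0.93), and most like Csf1r were Laptm5 (0.93), Slc15a3 (0.92) and Apbb1ip (0.91). Cd5l was nearest to Sdc3 (0.90), Clec4a3 (0.89) and B430306N03Rik (0.87), and Vsig4 to Naip5 (0.85), Sdc3 (0.84) and Ptgs1 (0.84). Clec4f had weaker neighbours, Cfp (0.71), Fam167a (0.69) and P2ry13 (0.63). Timd4 was nearest to Gbp2b (0.81), Tmem19 (0.72) and Fpr2 (0.71), Marco to Fpr1 (0.87), Naip6 (0.83) and Spic (0.83), Folr2 to Tpm3 (0.93), Gm8113 (0.89) and Serpina3f (0.87), and Cd163 to Cpn2 (0.77), Mup3 (0.73) and Atg9a (0.72). Cpn2 and Mup3 are genes of hepatocytes.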

How the data were processed

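Liver RNA from 93 mice (7 strains, 2 diets) was sequenced. The authors mapped reads to the C57BL/6J genome (GRCm38, mm10) with STAR 2.7.1a, per the processing notes, and deposited raw counts per gene, with no normalization. The annotation release and strand setting are not given in the sources used here. Of 53465 gene identifiers, 53360 matched a GENCODE M21 symbol.

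Groups came from the labels. Genes with a minimum count of 10 in enough mice were kept (edgeR filterByExpr, 19110 genes). Counts were scaled by TMM (edgeR 4.0.16) and fitted with limma 3.58.1 voom in R 4.3.3, with 1 mean for each of 14 groups. Contrasts were WD against CD in each strain, its difference from the mean of the other 6 strains, and CD levels. P-values were adjusted by Benjamini-Hochberg over all genes tested, with a threshold of 0.05. The test was checked on simulated counts. Log2 CPM for ratios and correlations used a prior count of 2, and ratios were compared by exact permutation (scipy 1.17.1). Alternatives were edgeR's quasi-likelihood test, DESeq2 1.42.0, other filters, scaling, weights and covariates, and each mouse left out.

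The 9 genes and the lists were chosen with earlier results of these data known. The genes named were the 9, up to 3 called genes of a list with the largest change in the strain described, and the 3 genes most correlated with each of the 9. The 40020424 to 49894856 reads on genes per mouse leave counting error small for the 9 genes other than Folr2 and, outside C57BL/6J, Marco.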

Additional observations from a re-analysis of the deposited data

Results flagged for a closer look

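The diet effect differed between strains, by limma's F test, for Adgre1 (adjusted p = 0.00113) and Csf1r (adjusted p = 0.0235). Against the mean of the other 6 strains, the log2 effect on Adgre1 differed by -0.79 in DBA/2J and by 0.90 in PWK/PhJ, and that on Csf1r by 0.74 in PWK/PhJ. The PWK/PhJ differences did not pass without CD replicate 5 (0.43 and 0.31, adjusted p = 0.340 and 0.330, limma).

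Single mice stood far from the rest of their group, by Dixon's ratio, in 20 of 126 combinations of gene and group, in 14 mice, where chance at 1 in 20 gives about 6.3. That figure takes CPM as normal and the genes as independent, but Adgre1 and Csf1r had r = 0.95 over the mice. The flags are therefore a description, and the excess over 6.3 was not tested. Marco accounted for 8 of them, all high. They were C57BL/6J CD replicate 6 at 62.5 CPM (the others 5.97 to 20.3), C57BL/6J WD replicate 4 at 88.5 (4.54 to 36.5), A/J WD replicate 3 at 10.9 (1.29 to 3.70) and 129S1/SvImJ CD replicate 7 at 6.20 (0.319 to 1.78). The other 4 were DBA/2J CD replicate 5 at 4.71, DBA/2J WD replicate 3 at 3.87, CAST/EiJ CD replicate 4 at 1.41 and PWK/PhJ WD replicate 6 at 0.257 CPM, the last on 12 reads.

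Cd163 was low in C57BL/6J CD replicate 2, at 0.974 CPM against 20.5 to 25.5 in the others. It was high in A/J CD replicate 2 at 37.3, CAST/EiJ CD replicate 5 at 41.1 and WSB/EiJ CD replicate 3 at 27.9 CPM. Timd4 was high in 129S1/SvImJ CD replicate 7 at 15.9 CPM (5.89 to 8.57) and PWK/PhJ WD replicate 7 at 6.69 CPM (3.16 to 4.10). Adgre1 was high in C57BL/6J WD replicate 4 at 129 CPM (35.9 to 55.3) and in 129S1/SvImJ CD replicate 7 at 28.0 CPM (10.3 to 15.4). Folr2 was high in A/J WD replicate 3 at 1.88 and DBA/2J CD replicate 6 at 0.397 CPM, Cd5l in PWK/PhJ WD replicate 7 at 132 CPM, and Vsig4 in CAST/EiJ CD replicate 4 at 21.1 CPM.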

How the results depend on the processing

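Over 119 results and 2298 alternative values, 2218 kept their side of the threshold or stayed within 1.5 times, and 0 reversed a called direction. A result called in neither fit was counted as kept even where its sign turned, as for Clec4f in PWK/PhJ without CD replicate 5. With edgeR's quasi-likelihood test 1 of the 9 genes had a diet effect that differed between strains. With at least 10 counts in every mouse the 129S1/SvImJ count was 3 and the recruited macrophage calls up were 18, since fewer genes were tested. Leaving out 1 mouse gave 3 to 5 in 129S1/SvImJ. With a separate fit per strain the A/J count was 1, and 1 shared macrophage gene was called lower. With sample quality weights the calls down were 10 among other Kupffer cell genes and 7 among niche genes.

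Without the 8 mice, a setting chosen after seeing the data, these were 11 and 10, and 6 of the 9 genes differed between strains. In that setting the log2 ratio of Timd4 to Clec4f differed by -0.31 in A/J and 0.45 in 129S1/SvImJ and passed, while Clec4f to Adgre1 in A/J (-0.20) did not. With 1 mouse left out, Timd4 to Clec4f ran from -0.31 to -0.18 in A/J, 0.24 to 0.45 in 129S1/SvImJ and -0.54 to -0.36 in WSB/EiJ. Clec4f to Adgre1 ran from -0.29 to -0.20 in A/J and -1.18 to -0.73 in C57BL/6J, and Marco to Clec4f from 0.66 to 1.13 in WSB/EiJ. Permuted within cohorts, the last (0.93) had an adjusted p of 0.05 by exact permutation. Beyond the constructions named, the cause was not tested. No paired analysis was possible because replicate numbers only name mice in accession order and the labels pair no mice. Folr2 and, outside C57BL/6J, Marco are limited by depth.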
